A study of Mus musculus with 9 samples.

Results

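The 10 genes described here, Lyz1, Lyz2, C1qa, C1qb, Adgre1, Mrc1, Cd14, Vcam1, Hmox1 and Slc40a1, are known for their use in macrophages or monocytes, and they were chosen by name from the 18162 genes with a probe set that carries 1 gene symbol. They were measured by 17 probe sets on each of 9 Affymetrix arrays. The arrays held RNA from 3 cell types, natural killer (NK) cells, conventional dendritic cells (CDC) and IKDC, the interferon-producing killer dendritic cells, all freshly sorted from naive BALB/c mice 6 to 8 weeks old. Each cell type had 2 arrays from spleen and 1 array from lymph node. All mice were untreated, and no genetic change is named in the labels. The labels do not say how many mice were pooled, which animals an array came from or which antibodies defined a sorted population. The p-values below therefore rest on differences among these arrays alone, and the number of arrays limits their precision. In each spleen cell type the spread is the difference between arrays 1 and 2. These arrays also differed in Xist and the Y-linked Eif2s3y (below), so they do not read as repeats of 1 RNA sample. Whatever else differed between them is part of the spread in the fit without a block for the array number.

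Macrophages and monocytes are phagocytes of the myeloid lineage. Lysozyme breaks down bacterial cell walls, the C1q chains start the classical complement cascade and help to clear dying cells, and CD14 presents lipopolysaccharide to its receptor. Macrophages of the splenic red pulp also take up old red blood cells, cut their heme with heme oxygenase and return the iron to the blood through ferroportin. Several of these genes are not restricted to macrophages: dendritic cells can express lysozyme, F4/80 and CD14, and endothelial and stromal cells express VCAM-1.

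Levels are given as log2 of the deposited intensity plus an offset of 6.49 units, after quantile normalization. Tests were made with limma on the 10897 genes whose mean level over the 9 arrays was at least 5.31, and a gene was called at a Benjamini-Hochberg adjusted p under 0.05. Of the 10 genes, 9 were tested, and Hmox1, with a mean of 4.67, lay below that minimum. A gene that passes through 1 high group had to differ, so the counts over the 9 tested genes describe those 9 and not the whole set. In sorted bulk samples, fewer cells of a type and less RNA per cell cannot be told apart.

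The sort labels were checked against lists of defining markers. All 8 tested NK markers were higher in spleen IKDC and in spleen NK than in spleen CDC, and conventional dendritic cell markers were lower in spleen IKDC for 6 of 9 and in spleen NK for 8 of 9. The spleen arrays with the same number shared features across the cell types. Xist lay between 6.02 and 6.36 on the 3 spleen arrays numbered 1 and between 11.43 and 12.48 on the other 6 arrays, and the Y-linked Eif2s3y lay between 8.84 and 9.40 on the first and between 2.76 and 4.28 on the second. The replicates of spleen IKDC differed by over 2-fold in 19.7% of tested genes, against 8.23% for CDC and 8.25% for NK. The bioB hybridization control, a bacterial transcript added to each sample, had a mean intensity of 124.1 on spleen IKDC array 2 and between 282.1 and 305.2 on the other spleen arrays.

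**Figure D1:**
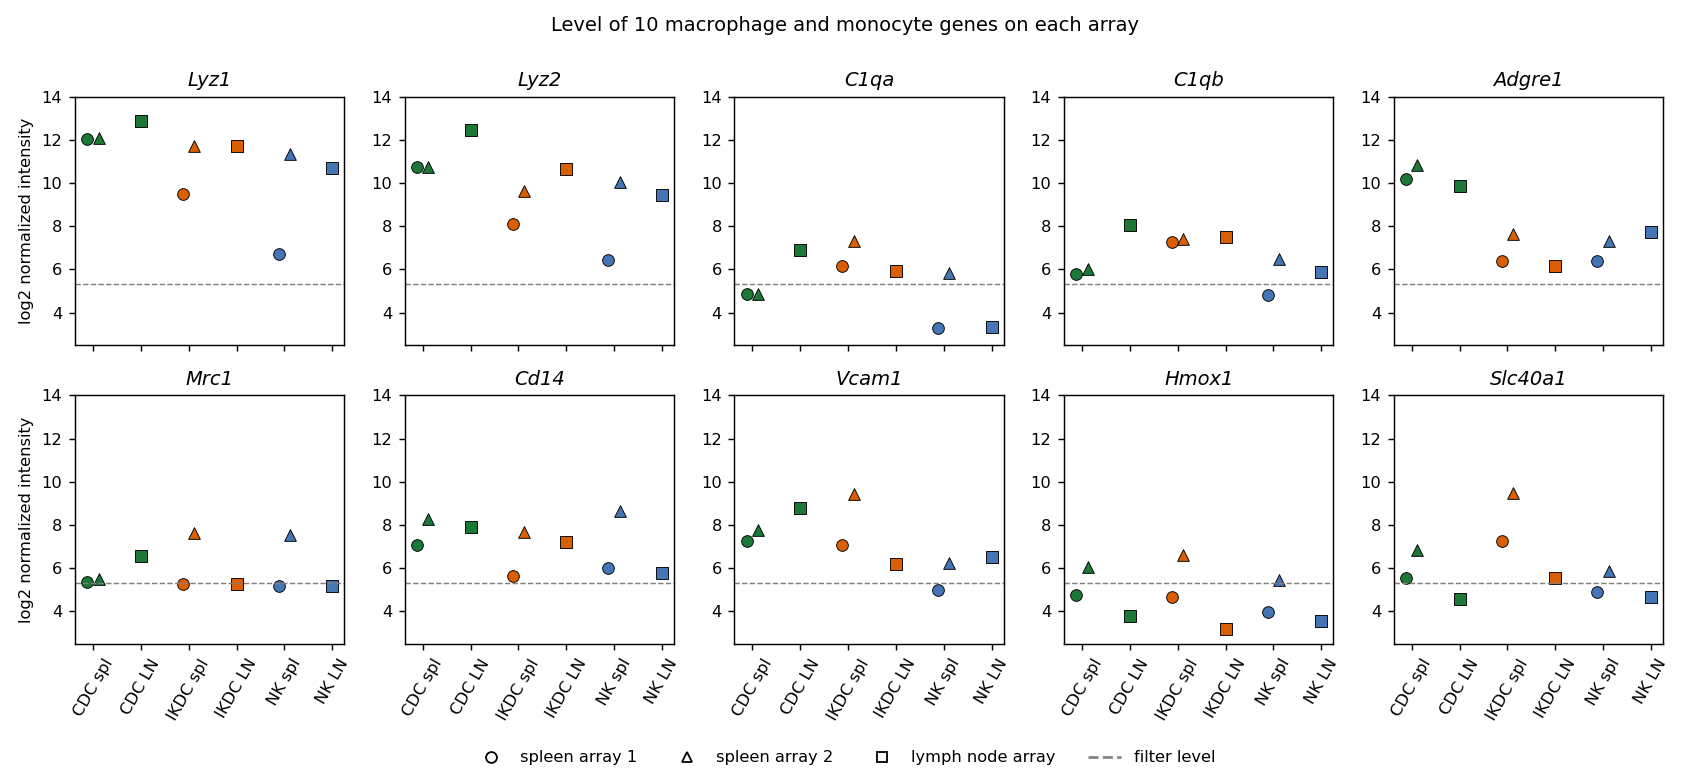
Levels of the 10 genes on each of the 9 arrays, as log2 of intensity plus the offset after quantile normalization, with 1 point per array; circles are spleen arrays 1, triangles spleen arrays 2, squares lymph node (LN) arrays, and the dashed line is the minimum mean level for testing, 5.31. Adgre1 is high on all 3 CDC arrays, at 9.87 to 10.85, and at most 7.73 elsewhere, while Lyz1, Lyz2 and Mrc1 separate the 2 spleen NK arrays and the 2 spleen IKDC arrays.

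Lyz1 and Lyz2 encode the 2 mouse lysozymes, called P and M after Paneth cells and macrophages. They lie next to each other on chromosome 10, with 0 protein-coding genes between them in the RefSeq annotation. Their upstream sequences are shown because their representative probe sets moved together over the arrays, although it is uncertain, as described below, which of the 2 lysozymes the Lyz1 set measures. The 250 bases before each start site come from the RefSeq promoter table (GRCm38.p6). The Lyz1 stretch is chr10:117292869-117293118 and the Lyz2 stretch is chr10:117282273-117282522, both on the minus strand and printed 5′ to 3′, and capitals mark the bases that were not identical in a global alignment.
Lyz1: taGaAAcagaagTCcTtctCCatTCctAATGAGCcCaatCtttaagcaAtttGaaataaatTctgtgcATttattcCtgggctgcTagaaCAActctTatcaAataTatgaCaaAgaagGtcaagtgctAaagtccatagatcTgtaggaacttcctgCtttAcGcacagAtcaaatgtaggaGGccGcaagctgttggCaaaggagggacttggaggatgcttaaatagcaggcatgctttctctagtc
Lyz2: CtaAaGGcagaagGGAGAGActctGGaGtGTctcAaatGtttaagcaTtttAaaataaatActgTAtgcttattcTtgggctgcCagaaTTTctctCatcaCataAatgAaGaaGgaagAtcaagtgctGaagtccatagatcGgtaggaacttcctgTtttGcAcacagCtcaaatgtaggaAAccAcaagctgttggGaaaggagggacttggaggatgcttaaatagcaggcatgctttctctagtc
Of 260 aligned columns 205 were identical, or 78.8%, and the stretch nearest to the start site is in lower case throughout. The C1qb stretch printed further on, taken as an unrelated sequence, was 50.7% identical to that of Lyz1 and 49.7% to that of Lyz2 by the same method. The letters TTGCNNAA, a core recognised by C/EBP factors of the myeloid lineage, were searched on both strands. They matched once in Lyz1, starting 209 bases before the start site, and 0 times in Lyz2, while 9.55% of the 27025 promoter stretches of this length held a match.

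Lysozyme was high in CDC of both organs and varied widely between arrays of the other cell types. Lyz2 stood at 10.76 and 10.75 on the 2 spleen CDC arrays, at 6.42 and 10.05 on the spleen NK arrays, at 8.09 and 9.65 on the spleen IKDC arrays, and at 12.46, 9.45 and 10.63 in lymph node CDC, NK and IKDC. Lyz1 stood at 12.04 and 12.10 in spleen CDC, at 6.70 and 11.36 in spleen NK, at 9.47 and 11.70 in spleen IKDC, and at 12.85, 10.68 and 11.72 in lymph node CDC, NK and IKDC. For both genes all 3 CDC arrays lay above all 3 NK arrays and above all 3 IKDC arrays, while the IKDC and NK arrays overlapped. The order of CDC over IKDC did not hold on the other Lyz1 probe sets. On 1439426_x_at spleen CDC array 2 read 10.52 and spleen IKDC array 2 read 11.27. On 1450822_at spleen CDC array 1 read 5.11 and lymph node IKDC 5.24. The order of the group means of Lyz2 was lymph node CDC at 12.46, spleen CDC at 10.76, lymph node IKDC at 10.63, lymph node NK at 9.45, spleen IKDC at 8.87 and spleen NK at 8.24, and each step between neighbours was smaller than the SD of 2.56 between the spleen NK arrays.

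In deposited units the spread between the NK replicates was large. The Lyz2 intensity was 71.3 on spleen NK array 1 and 1080 on array 2, and in spleen CDC it was 1860 and 1700. The SD of the log2 level was 2.56 in spleen NK (n = 2), 1.10 in spleen IKDC (n = 2) and 0.01 in spleen CDC (n = 2). The Lyz2 level in spleen NK minus that in spleen CDC was -2.52 ± 1.12 (SE; limma adjusted p = 0.221), and in spleen IKDC minus spleen CDC it was -1.88 ± 1.12 (limma adjusted p = 0.388). For Lyz1 the same differences were -3.03 ± 1.45 (limma adjusted p = 0.257) and -1.48 ± 1.45 (limma adjusted p = 0.617). None of these passed the test. Without spleen NK array 2 both genes were called lower in spleen NK than in spleen CDC, with differences of -4.33 for Lyz2 (limma adjusted p = 0.0249) and -5.37 for Lyz1 (limma adjusted p = 0.0314). That setting leaves a single spleen NK array, whose spread was taken from the other groups, as in every fit below that leaves out a spleen array. Lyz2 was also called with all arrays kept in an additive model of organ and cell type, at -2.68 (limma adjusted p = 0.0369).

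Other lists also differed between the 2 spleen NK arrays. The summed intensity of 24 macrophage genes on the array was 1280 on NK array 1 and 3540 on array 2, that of 5 basophil and mast cell genes was 179 and 2050, and that of 9 conventional dendritic cell genes was 3910 and 489. Much of the rise in the macrophage sum came from Csf1r, at 7.14 and 9.82, and Apoe, at 6.85 and 9.78. Of the 24 macrophage genes 14 were higher on array 2 and 10 were lower, among them Treml4, at 4.78 and 2.93. Most of the fall in the dendritic cell sum came from Itgax, at 11.32 and 7.27, and Cd74, at 9.68 and 7.18. Of the 9 genes 7 were lower on array 2, with Flt3 at 5.61 and 5.22, and Xcr1 and Zbtb46 were higher, at 4.76 and 5.03 and at 4.86 and 5.24. The part of other cell types in the lysozyme level was not tested.

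The 3 probe sets of Lyz1 did not behave alike. The representative probe set and the second one, 1439426_x_at, had r = 0.97 with each other over the 9 arrays and r = 0.96 each with the single Lyz2 probe set, as a description of arrays that share their libraries. The array maker's suffix "_x_at" marks probe sets with probes that may also match other transcripts. The third, 1450822_at, designed on the Lyz1 transcript NM_013590, had intensities from 11.4 on spleen IKDC array 2 to 99.3 on lymph node CDC, a mean level of 5.08 and correlations of 0.61 with the representative one, 0.68 with the second and 0.80 with Lyz2. On spleen IKDC arrays 1 and 2 the representative set read 686 and 2580, while 1450822_at read 15.1 and 11.4. Which lysozyme the first and second sets measured was not tested, so the Lyz1 values are uncertain as values of that gene.

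**Figure D2:**
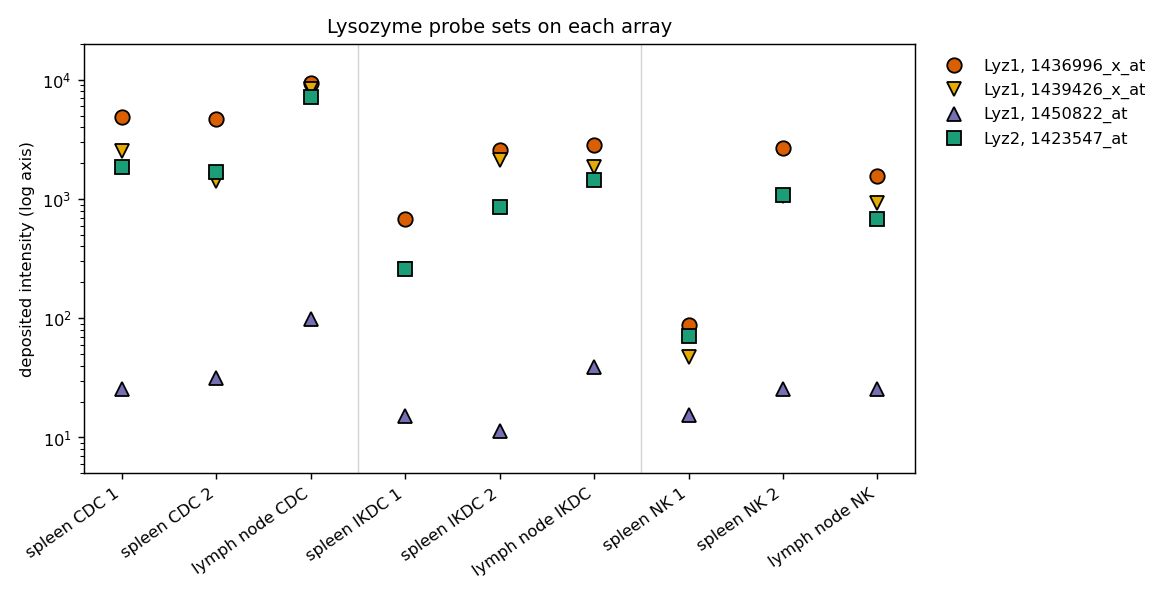
Deposited intensities, on a log axis, of the 3 Lyz1 probe sets and the Lyz2 probe set on each of the 9 arrays, with 1 symbol per probe set and vertical lines between the cell types. The 2 Lyz1 sets with the suffix _x_at rise and fall from array to array with Lyz2 (r = 0.96 each on the log2 scale), whereas 1450822_at stays between 11.4 and 99.3; on spleen IKDC array 1 and spleen NK array 2 the symbol of Lyz2 covers that of 1439426_x_at.

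C1qa and C1qb encode 2 of the 3 chains of C1q and lie on chromosome 4 with C1qc, the gene of the third chain, between them. The C1qb levels were 5.77 and 6.00 in spleen CDC, 4.84 and 6.47 in spleen NK, 7.28 and 7.42 in spleen IKDC, and 8.04, 5.90 and 7.51 in lymph node CDC, NK and IKDC. C1qa stood at 4.88 and 4.86 in spleen CDC, 3.30 and 5.82 in spleen NK, 6.16 and 7.34 in spleen IKDC, and 6.91, 3.34 and 5.93 in lymph node CDC, NK and IKDC. By the representative probe sets both chains were therefore higher on all 3 IKDC arrays than on all 3 NK arrays, a pattern shown by 4.85% of tested genes. In spleen, both IKDC arrays also lay above both CDC arrays, and in lymph node the CDC array was the highest. The other C1qb probe sets did not keep the order of IKDC over NK. Spleen IKDC array 1 and spleen NK array 2 read 5.61 and 6.40 on 1417063_at, and 6.51 and 6.61 on 1437726_x_at. On 1417063_at lymph node CDC read 5.58, below lymph node IKDC at 5.68.

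The C1qb level in spleen IKDC minus spleen NK was 1.69 ± 0.53 (95% interval 0.41 to 2.98; limma adjusted p = 0.859), and in spleen IKDC minus spleen CDC it was 1.47 ± 0.53 (95% interval 0.18 to 2.75; limma adjusted p = 0.157). For C1qa these differences were 2.19 ± 0.85 (limma adjusted p = 0.859) and 1.88 ± 0.85 (limma adjusted p = 0.251). Neither gene passed the test in either comparison. Lymph node CDC minus spleen CDC gave 2.15 ± 0.65 for C1qb (limma adjusted p = 0.281) and 2.04 ± 1.04 for C1qa (limma adjusted p = 0.478), with the spread of the spleen arrays taken to hold for each lone lymph node array. The second and the third C1qb probe set gave 1.52 and 1.34 in spleen IKDC minus spleen CDC, the same direction as the representative one. In lymph node CDC minus spleen CDC they gave 2.37 and 0.68. C1qc lay below the minimum level in the mean, at 5.94 and 7.03 in spleen IKDC, 4.0 and 5.67 in spleen CDC and 3.21 and 6.61 in spleen NK, so that its IKDC arrays overlapped those of NK.

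The stretch before the C1qb start site, chr4:136886201-136886450 on the minus strand (GRCm38.p6, RefSeq promoter table), is shown because it holds the letters GAGGAA, in capitals, which form the core recognised by PU.1, a transcription factor of myeloid cells.
C1qb: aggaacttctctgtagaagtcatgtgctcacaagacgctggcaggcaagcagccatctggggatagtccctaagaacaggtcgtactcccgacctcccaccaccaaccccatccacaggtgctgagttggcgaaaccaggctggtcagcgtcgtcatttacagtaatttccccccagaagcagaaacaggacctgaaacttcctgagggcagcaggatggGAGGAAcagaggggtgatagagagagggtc
The match starts 30 bases before the start site. Searched on both strands, GAGGAA was found in 23.1% of the 27025 stretches, and 0 times in those of Lyz1 and Lyz2. The Mrc1 stretch held 3 matches, and these 4 genes of the 10 are the ones for which a promoter sequence was used here. A match is a description of the letters and not a binding site.

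Adgre1 encodes F4/80, an adhesion G protein-coupled receptor widely used as a surface marker of mouse macrophages. It stood at 10.17 and 10.85 in spleen CDC, at 6.40 and 7.32 in spleen NK, at 6.41 and 7.62 in spleen IKDC, and at 9.87, 7.73 and 6.17 in lymph node CDC, NK and IKDC. The 3 CDC arrays lay above all 6 others without overlap. The order of the group means was spleen CDC at 10.51, lymph node CDC at 9.87, lymph node NK at 7.73, spleen IKDC at 7.02, spleen NK at 6.86 and lymph node IKDC at 6.17. Apart from the step between lymph node CDC and lymph node NK, neighbours differed by less than the SD of 0.86 between the spleen IKDC arrays.

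Adgre1 was the 1 of the 9 tested genes that passed the test in the spleen, in the fit without a block for the array number. It was 11.3-fold lower in spleen IKDC than in spleen CDC, a difference of -3.49 ± 0.52 (95% interval -4.75 to -2.24; limma adjusted p = 0.0091), in a comparison in which limma called 10.3% of all tested genes, 4.74% as higher and 5.6% as lower. It was 12.5-fold lower in spleen NK than in spleen CDC, a difference of -3.65 ± 0.52 (95% interval -4.90 to -2.39; limma adjusted p = 0.00617), where 13.5% of tested genes were called, 6.54% as higher and 6.97% as lower. A count of 1 in 9 is close to both of these shares. The call was lost without spleen CDC array 2, with -3.15 for IKDC (limma adjusted p = 0.0902) and -3.31 for NK (limma adjusted p = 0.0644), and it held without each of the other spleen arrays. Both comparisons use the same CDC arrays. With the array number as a block, Slc40a1 was called as well in spleen IKDC minus spleen CDC, and Vcam1 in spleen NK minus spleen CDC (below). In lymph node the log2 level on the IKDC array minus that on the CDC array was -3.69, and that on the NK array minus CDC was -2.14, with no test for a pair of single arrays.

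Vcam1 encodes an adhesion molecule of activated endothelium and of red pulp and bone marrow macrophages. Its levels were 7.24 and 7.77 in spleen CDC, 4.98 and 6.23 in spleen NK, 7.06 and 9.43 in spleen IKDC, and 8.79, 6.54 and 6.21 in lymph node CDC, NK and IKDC. All 3 CDC arrays lay above all 3 NK arrays, and spleen IKDC array 2 was the highest of all arrays. Spleen IKDC minus spleen NK was 2.63 ± 0.80 (95% interval 0.71 to 4.56; limma adjusted p = 0.859) and spleen NK minus spleen CDC was -1.90 ± 0.80 (limma adjusted p = 0.2). Spleen IKDC minus spleen CDC was 0.74 ± 0.80 (limma adjusted p = 0.658), and it turned to -0.45 without IKDC array 2. The NK difference from CDC was called without IKDC array 1 (limma adjusted p = 0.0348) or without IKDC array 2 (limma adjusted p = 0.0388), settings that leave its own arrays in place and change the estimate of the spread. With the array number as a block it was called as well, at -1.90 (limma adjusted p = 0.024).

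The second Vcam1 probe set followed the representative one with r = 0.94 over the arrays, and the third, below the minimum level, did so with r = 0.36. On the second set the differences were smaller or of the other sign. Spleen IKDC minus spleen NK was 1.02 ± 0.67 there, and spleen IKDC minus spleen CDC was -0.10 ± 0.67. Of 13 stromal and endothelial markers 7 lay below the minimum level, among them the endothelial genes Cdh5 and Tek. The summed intensity of the 13 was 555 on spleen IKDC array 1 and 471 on array 2, and 6 of the 13 were higher on array 2. Those 6 include the endothelial genes Cdh5, at 3.05 and 5.59, Pecam1, at 5.19 and 6.77, and Tek, at 3.90 and 4.87 on arrays 1 and 2. The part of endothelial cells in the Vcam1 level was not tested.

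Cd14 encodes the co-receptor that hands lipopolysaccharide to TLR4 and MD-2. Its levels were 7.08 and 8.28 in spleen CDC, 5.99 and 8.63 in spleen NK, 5.64 and 7.67 in spleen IKDC, and 7.89, 5.79 and 7.19 in lymph node CDC, NK and IKDC. Array 2 was the higher one in each spleen cell type, and the 3 spleen groups overlapped. Spleen IKDC minus spleen CDC was -1.02 ± 1.02 (limma adjusted p = 0.625) and spleen NK minus spleen CDC was -0.37 ± 1.02 (limma adjusted p = 0.879).

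Mrc1 encodes the mannose receptor CD206, an endocytic receptor of tissue macrophages. It was at or near the minimum level on most arrays, with 5.34 and 5.49 in spleen CDC, 5.18 and 7.55 in spleen NK, 5.27 and 7.65 in spleen IKDC, and 6.58, 5.18 and 5.27 in lymph node CDC, NK and IKDC. The intensity was 25.7 and 179 on the 2 spleen NK arrays and 33.2 and 201 on the 2 spleen IKDC arrays, so that 1 array of each pair gave nearly all of the signal. No comparison was called for Mrc1, and spleen IKDC minus spleen CDC, 1.04 ± 0.99 (limma adjusted p = 0.603), turned to -0.15 without IKDC array 2.

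Slc40a1 encodes ferroportin, the iron exporter of the cell surface. Its levels were 5.53 and 6.85 in spleen CDC, 4.90 and 5.85 in spleen NK, 7.24 and 9.50 in spleen IKDC, and 4.59, 4.66 and 5.54 in lymph node CDC, NK and IKDC. Both spleen IKDC arrays lay above every other array. In deposited units they read 144 and 780, against 111 on the next array, spleen CDC array 2, so that the 2 IKDC arrays themselves differed by more than the gap to the other cell types. Spleen IKDC minus spleen CDC was 2.18 ± 0.83 (95% interval 0.18 to 4.18; limma adjusted p = 0.175), and spleen IKDC minus spleen NK was 3.0 ± 0.83 (95% interval 1.0 to 4.99; limma adjusted p = 0.859). Neither was called, and the first was called without IKDC array 1, at 3.31 (limma adjusted p = 0.0271). With the array number as a block, whose meaning the labels do not give, the first was called at 2.18 (limma adjusted p = 0.00935).

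Lymph node IKDC minus spleen IKDC was -2.83 ± 1.02 for Slc40a1 (limma adjusted p = 0.642). Over the 3 cell types, lymph node minus spleen was -1.72 ± 0.59 (limma adjusted p = 0.236), which is not a call either. The second Slc40a1 probe set had r = 0.87 with the first and was highest on the same array, spleen IKDC array 2, at 7.11. On it spleen IKDC array 1 read 5.08, below spleen CDC array 2 at 5.41, lymph node NK at 5.21 and lymph node IKDC at 5.12, so that the order of the first probe set did not hold there. Of 24 macrophage genes on the array, 18 were higher and 6 lower on spleen IKDC array 2 than on array 1. Among the first, named after their values were seen, were Cd5l, a secreted scavenger receptor protein, at 5.69 and 7.44 on arrays 1 and 2, and Spic, a transcription factor of red pulp macrophages, at 3.06 and 4.96. Among the second were Apoe, the lipid carrier apolipoprotein E, at 9.75 and 8.46, and Pltp, at 8.71 and 8.40. Cd5l and Spic lay below the minimum level in the mean, and Spic was higher in spleen CDC, at 5.24 and 5.63. All 6 erythroid markers on the array lay below the minimum level, with a summed intensity of 120 and 141 on the 2 spleen IKDC arrays and 253 on spleen NK array 2.

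Hmox1 encodes heme oxygenase 1, which opens the heme ring and releases its iron. It was not tested, and its levels were 4.78 and 6.04 in spleen CDC, 3.98 and 5.46 in spleen NK, 4.65 and 6.60 in spleen IKDC, and 3.77, 3.56 and 3.19 in lymph node CDC, NK and IKDC. All 3 lymph node arrays lay below all 6 spleen arrays. This held for 2.99% of the 18162 genes. The lymph node intensities were 9.44, 5.35 and 3.36, close to the offset of 6.49, so the size of the difference is not well measured.

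**Figure D3:**
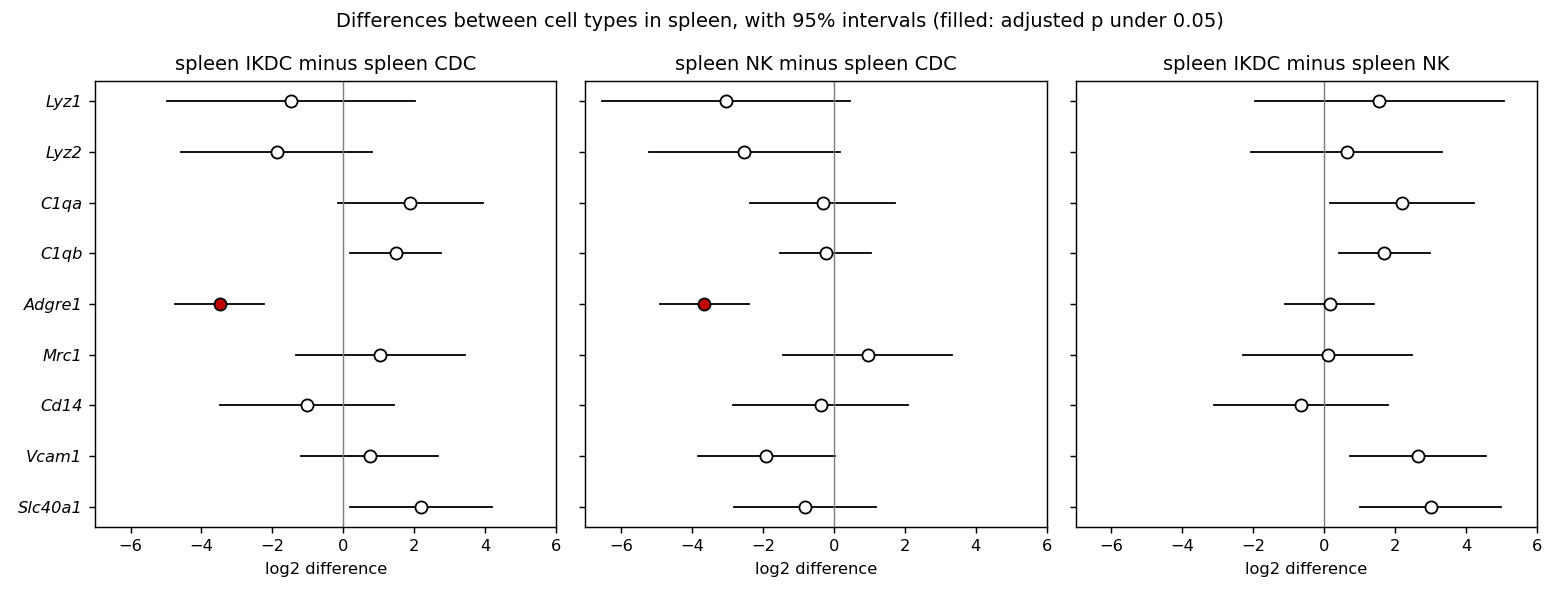
Differences in log2 level between spleen cell types for the 9 tested genes, with 95% intervals from limma as lines and filled points for an adjusted p under 0.05. The Adgre1 intervals lie wholly below 0 against CDC in both IKDC and NK, and those of the lysozyme genes are wide and include 0.

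Between spleen IKDC and spleen NK limma called 0 of the 9 genes and 0% of all tested genes, with 599 genes at an unadjusted p under 0.05. Of the 9, 4 had an unadjusted p under 0.05 (C1qa, C1qb, Vcam1 and Slc40a1), all with the higher level in IKDC, against 5.5% of all tested genes in either direction. This count rests on the representative probe sets. The other C1qb sets gave 1.60 ± 0.85 and 1.22 ± 0.92, and the second Vcam1 set 1.02 ± 0.67. The second Slc40a1 set lay below the minimum level. C1qa and C1qb count as 2 although they had r = 0.89, and C1qa passed the minimum level narrowly, with a mean of 5.39. The median difference of the 9 was 1.55 and that of all tested genes -0.01, and 8 of the 9 differences were positive. In spleen IKDC minus spleen CDC the median of the 9 was 0.74 against 0.04 for all tested genes, and in spleen NK minus spleen CDC it was -0.82 against 0.06.

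All 3 CDC arrays lay above all 3 NK arrays for 4 of the 9 genes (Lyz1, Lyz2, Adgre1 and Vcam1), against 17.2% of tested genes. They lay above all 3 IKDC arrays for 3 of the 9 (Lyz1, Lyz2 and Adgre1), against 14.5%. The opposite order was found for 0 of the 9 in either case, against 19.7% of tested genes for NK and 15.8% for IKDC. The lysozyme genes count as 2 here, although their probe sets may share transcripts. For Lyz1 the CDC arrays lay above the IKDC arrays on the representative probe set only.

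Between lymph node and spleen limma called 0 of the 9 genes in each cell type and 0 in the mean of the 3 types. In Xist and Eif2s3y the lymph node arrays lay with the spleen arrays numbered 2 (above). Each spleen mean averages over the difference between arrays 1 and 2, so that difference and organ are not fully separate here. The shares of all genes called were 0.0275% in CDC, 0% in NK, 0% in IKDC and 0.376% in the mean. At an unadjusted p under 0.05 stood C1qb in CDC, Slc40a1 in IKDC, none of the 9 in NK, and Slc40a1 in the mean, against 1384, 743, 628 and 1800 of all 10897 genes in the same order. The median difference of the 9 was 1.17 in CDC, with 7 of 9 positive, 0.25 in NK and -0.82 in IKDC. Whether the organ difference differed between cell types was tested directly, and limma called 0 genes in each of the 3 pairs of cell types. The smallest adjusted p among the 9 was 0.886 for IKDC against CDC, and 0 of the 9 had an unadjusted p under 0.05 in any pair, while 615, 578 and 301 of all tested genes did.

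The lone lymph node arrays can be set beside the spleen differences gene by gene. The IKDC array minus the CDC array gave -1.13 for Lyz1, and -1.83 for Lyz2 and, as given above, -3.69 for Adgre1, each with the sign seen in spleen. For C1qa and C1qb it gave -0.98 and -0.53, for Vcam1 -2.57, for Mrc1 -1.31 and for Hmox1 -0.57, each opposite in sign to spleen. Slc40a1 gave 0.95 and Cd14 -0.69, the same signs as in spleen. The sign thus differed between organs for 5 of the 10 genes, and limma called 0 genes when this difference was tested (above; Hmox1 was not tested). Without spleen IKDC array 2 the spleen differences of Vcam1 and Mrc1 turned to -0.45 and -0.15. On its second probe set Vcam1 gave -0.10 in spleen. The Hmox1 intensities in lymph node were close to the offset. The NK array minus the CDC array was negative for 9 of the 10 genes, from -3.57 for C1qa to -0.21 for Hmox1, and 0.07 for Slc40a1. The shares of all genes with these signs were not counted, so both counts describe the 10 genes only.

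In the spleen, array 2 gave the higher level in all 3 cell types for 7 of the 9 tested genes, Lyz1, C1qb, Adgre1, Mrc1, Cd14, Vcam1 and Slc40a1. This order was found in 24% of all tested genes, and the opposite order in 23.2% of them and in 0 of the 9. Array 2 minus array 1 was 1.20 in CDC, 2.64 in NK and 2.03 in IKDC for Cd14, while the 5th to 95th percentiles over all tested genes ran from -1.05 to 0.80 in CDC, -1.0 to 0.83 in NK and -1.55 to 1.27 in IKDC. For Mrc1 it was 0.14, 2.38 and 2.38, and for Slc40a1 1.32, 0.94 and 2.26 in the same order. Lyz1 differed by 0.06 in CDC, 4.66 in NK and 2.23 in IKDC. On its second probe set, 1439426_x_at, CDC array 2 lay below CDC array 1, so the order did not hold there. Lyz2 and C1qa were lower on CDC array 2, each by 0.01 (differences of -0.01), and higher on array 2 in the other cell types, by 3.62 and 1.56 for Lyz2 and by 2.51 and 1.18 for C1qa.

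In CDC the representative probe sets of the lysozyme genes, C1qa and C1qb thus differed by at most 0.22 between the arrays. Other probe sets differed by more on CDC arrays 1 and 2. The second Lyz1 set, 1439426_x_at, read 11.12 and 10.52. The other C1qb sets read 4.50 and 5.30 for 1417063_at and 4.87 and 5.94 for 1437726_x_at. C1qc read 4.0 and 5.67. The Xist and Eif2s3y levels given above differed between the same arrays, and their part in these differences was not tested. The level of Mki67, a gene of dividing cells, also moved with the array number and lay between 10.97 and 11.91 on the spleen arrays numbered 1 and between 8.63 and 9.86 on the other arrays.

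**Figure D4:**
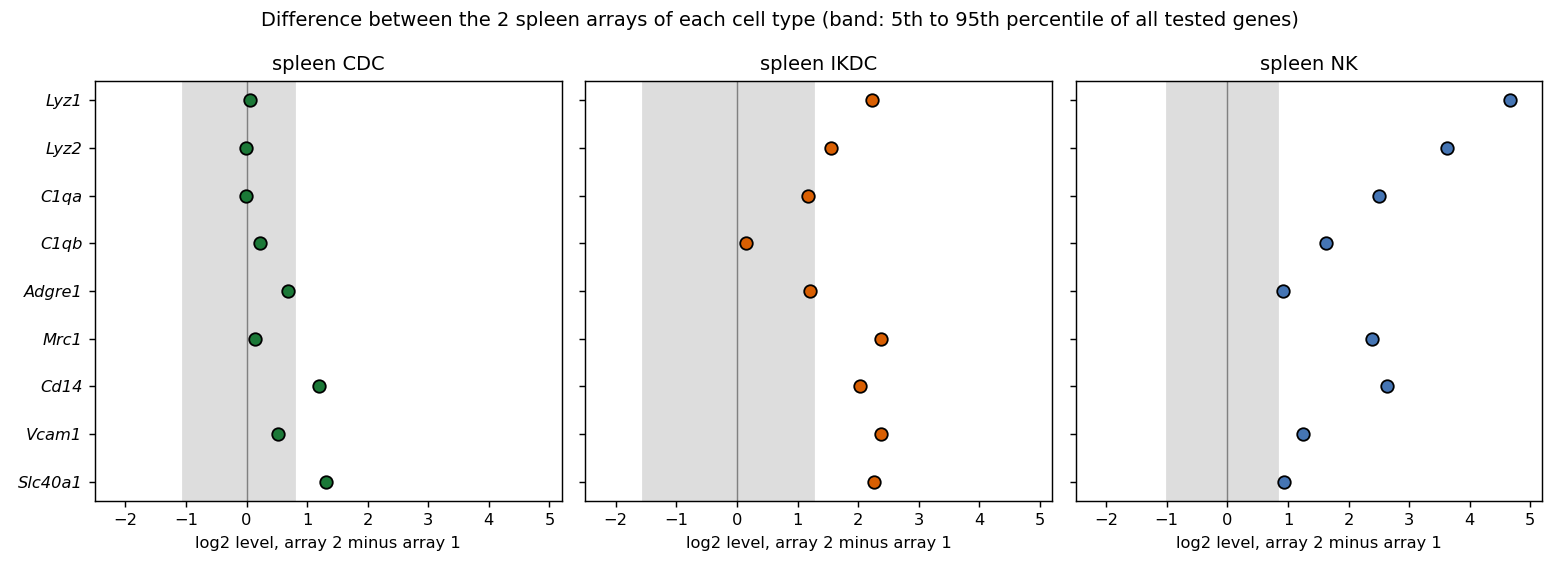
Level on spleen array 2 minus level on spleen array 1 in CDC, NK and IKDC for the 9 tested genes, on the log2 scale; the shaded range is the 5th to 95th percentile of all tested genes. For 7 of the 9 genes all 3 points lie above 0, and the largest difference is 4.66, for Lyz1 in NK.

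Further genes of the same cells and pathways were read from 4 lists. Beside the list counts, the shares over all tested genes in spleen IKDC minus spleen CDC were 4.74% higher and 5.6% lower with a median of 0.04, and in spleen NK minus spleen CDC 6.54% higher and 6.97% lower with a median of 0.06. Of 14 tested macrophage genes, limma called 2 higher and 3 lower in spleen IKDC than in spleen CDC, with a median of -0.39. Maf, a transcription factor that macrophages share with several lymphocyte types, was 3.44 ± 0.47 higher (limma adjusted p = 0.00651), and Cd163, the receptor for hemoglobin bound to haptoglobin, 2.30 ± 0.52 higher (limma adjusted p = 0.0417). The spleen CDC means of Maf and Cd163, 4.88 and 4.04, lay below the minimum level, so the sizes of these differences are not well measured. Cd68, a lysosomal glycoprotein, was lower, with -3.40 ± 0.36 (limma adjusted p = 0.0029), as was Treml4, a receptor of dying cells also found on splenic dendritic cells, with -3.53 ± 0.80 (limma adjusted p = 0.041). In spleen NK minus spleen CDC, 1 was higher, Maf at 3.29 ± 0.47 (limma adjusted p = 0.00602), and 3 were lower, among them Cd68 at -3.51 ± 0.36 (limma adjusted p = 0.0017) and Pltp, the phospholipid transfer protein, at -1.91 ± 0.27 (limma adjusted p = 0.00587). The list median there was -0.53.

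The genes called lower in this list were thus found with high levels in CDC. Without spleen CDC array 1 the IKDC count was 1 higher and 1 lower, and the NK count was 2 higher and 4 lower without either IKDC array. In spleen IKDC minus spleen CDC, Cd163 lost its call without any one of the spleen arrays other than IKDC array 1, with levels of 5.63 and 7.05 in spleen IKDC and 6.21 and 5.97 in spleen NK. Of the 24 list genes on the array 10 lay below the minimum level, including Mertk, Marco, Siglec1, Spic and Vsig4, which mark macrophages of particular tissues and zones. The summed intensity of the list was 9260 and 9130 in spleen CDC, 2790 and 3840 in spleen IKDC, 1280 and 3540 in spleen NK, and 14600, 6590 and 2560 in lymph node CDC, IKDC and NK.

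Of 15 tested monocyte genes, 0 were called higher and 5 lower in spleen IKDC than in spleen CDC, with a median of -0.71, and 0 higher and 4 lower in spleen NK, with a median of -1.0. The list includes Sirpa, the receptor of the CD47 signal, at -3.72 ± 0.32 in IKDC (limma adjusted p = 0.00168) and -4.96 ± 0.32 in NK (limma adjusted p = 0.000659). Ms4a6c, a membrane protein of monocytes, gave -3.50 ± 0.35 in IKDC (limma adjusted p = 0.00237) and -2.91 ± 0.35 in NK (limma adjusted p = 0.00312). Clec7a, the beta-glucan receptor Dectin-1, was called in IKDC, at -3.27 ± 0.75 (limma adjusted p = 0.0427), and Fpr2, a formyl peptide receptor, was called in both, at -1.92 ± 0.32 in NK (limma adjusted p = 0.0109). Plac8 was also lower in both, at -2.97 ± 0.23 in IKDC (limma adjusted p = 0.00136). Without spleen CDC array 1 or array 2 the IKDC count was 3 lower, and without IKDC array 1 it was 2 higher and 4 lower. The NK count was 3 lower without either CDC array or NK array 1, and 2 higher and 6 lower without either IKDC array.

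In the same list Nr4a1, an immediate-early nuclear receptor that patrolling monocytes need, was the 1 gene called between organs. It was lower in lymph node CDC than in spleen CDC, at -4.32 ± 0.28 (limma adjusted p = 0.0272), and over the 3 cell types at -3.63 ± 0.16 (limma adjusted p = 0.00254). The CDC comparison rests on 1 lymph node array. Its call was lost with no filter and without the trend, where limma called 0 genes. It was also lost without either spleen CDC array or either spleen NK array. The call over the 3 cell types was lost without either spleen NK array. Its levels lay between 11.59 and 12.47 on the 6 spleen arrays and between 7.94 and 8.81 on the 3 lymph node arrays.

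Of 16 tested heme and iron genes, 1 was called higher and 3 lower in spleen IKDC than in spleen CDC, with a median of -0.11, and 1 higher and 4 lower in spleen NK, with a median of -0.16. Flvcr1, an exporter of heme, was lower in IKDC, at -2.72 ± 0.29 (limma adjusted p = 0.00301), and in NK, at -3.22 ± 0.29 (limma adjusted p = 0.0013). Hebp1, a heme-binding protein, gave -2.56 ± 0.45 in IKDC (limma adjusted p = 0.0163) and -4.48 ± 0.45 in NK (limma adjusted p = 0.00167). Its means in spleen IKDC and spleen NK, 5.19 and 3.26, lay below the minimum level. Measured against that level the fold was 5.39 in both, so the larger difference in NK is not well measured. Slc11a1, the phagosomal metal transporter NRAMP1, was lower in both, at -1.60 ± 0.28 in IKDC (limma adjusted p = 0.0159), and Tfrc, the transferrin receptor, was lower in NK, at -1.86 ± 0.35 (limma adjusted p = 0.0173). Srxn1, a sulfiredoxin induced by oxidative stress, was higher in IKDC, at 1.96 ± 0.33 (limma adjusted p = 0.0141). In NK it was higher as well, at 1.86 ± 0.33 (limma adjusted p = 0.0136). Its mean in spleen CDC, 4.95, lay below the minimum level. The exporter Flvcr1 was thus called lower where the Slc40a1 levels of spleen IKDC lay above those of CDC. Without spleen CDC array 1 the IKDC count was 0 higher and 2 lower, and without CDC array 2 it was 0 higher and 1 lower. The NK count was 0 higher and 2 lower without CDC array 1, 1 and 2 without CDC array 2, 0 and 3 without either NK array, and 2 and 4 without either IKDC array.

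Of 10 tested genes of the lipopolysaccharide receptor and its signalling, 0 were called higher and 2 lower in spleen IKDC, with a median of -0.36, and the same 2 genes, Ly86 and Cd180, were called lower in spleen NK, with a median of -0.19. They encode MD-1 and RP105, which form a complex related to the receptor that CD14 serves. The Ly86 difference was -3.59 ± 0.32 in IKDC (limma adjusted p = 0.00178) and -5.14 ± 0.32 in NK (limma adjusted p = 0.000579), and that of Cd180 -2.28 ± 0.36 in IKDC (limma adjusted p = 0.0114). Without CDC array 1 only Ly86 was called in either comparison, and in NK the same was found without CDC array 2 or NK array 1. Between spleen IKDC and spleen NK limma called 0 genes in each of these 4 lists.

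Markers of other cell types were read beside these lists. Of 12 neutrophil genes on the array 9 lay below the minimum level, S100a9, Camp, Ltf, Mpo and Elane among them, and the summed intensity was between 116 on spleen IKDC array 2 and 472 in lymph node CDC. The B cell sum lay between 934 and 2400, the T cell sum between 824 and 2970, and the plasmacytoid dendritic cell sum between 1240 and 3040 on 8 arrays and at 10900 in lymph node IKDC. The part of these cells in the levels of the 10 genes was not tested.

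The likeness of other genes was measured by Pearson's r over the 9 arrays, which share organ, cell type and array number, and is given as a description. For Lyz2 the nearest gene was Lyz1 (r = 0.958), followed by Twsg1 (r = 0.953) and Csf2rb (r = 0.941). C1qa was nearest to C1qb (r = 0.891), and C1qb to Lonrf1 (r = 0.917). For Adgre1, which follows the difference between CDC and the other cells, 208 genes had r above 0.9, led by Parp12 (r = 0.987), Phf10 (r = 0.983) and Rnf144b (r = 0.982). Slc40a1 was nearest to Ghitm (r = 0.96), Vcam1 to Dbt (r = 0.967), Cd14 to 2810004N23Rik (r = 0.966) and Mrc1 to Uhrf2 (r = 0.934). Among the 9 genes themselves, Adgre1 had r = 0.04 with C1qa and -0.07 with Slc40a1, and Slc40a1 had r = -0.10 with Lyz2, so that the genes did not form a single group across the arrays.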

How the data were processed

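The 9 arrays hold biotin-labelled cRNA made from 6 µg of total RNA, extracted with TRIzol and RNeasy, per the labels. The deposited values are linear intensities per probe set, scaled by the authors so that the mean between the 2nd and 98th percentiles was 150.0008 to 150.001 on each array. The software was not given in the sources used here. There were 45101 probe sets and 0 missing values. An offset of 6.49, the 20th percentile, was added before log2 and quantile normalization. Fold changes are on this scale, which understates changes of low genes.

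Of the probe sets, 64 were controls, 34945 carried 1 gene symbol in the platform annotation, 932 several and 9160 none. Symbols were updated through RefSeq accessions or synonyms for 59. The probe set with the highest mean stood for its gene. Genes below the 40th percentile of the mean (5.31) were not tested. limma 3.58.1 in R 4.3.3 was fitted over 6 groups, with a trend, 3 residual and 3.44 prior degrees of freedom. Two-sided p-values were adjusted over 10897 genes. The fit was tested on simulated data. Promoters were aligned with Biopython 1.88.

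The 10 genes and all lists were chosen with earlier results of these data known. Named were the 10 genes, up to 4 called genes per list and comparison with the largest differences, some of which are left out here, and up to 3 genes most like each of the 10. Alternatives changed the normalization, offset, filter, probe set choice, model and arrays used.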

Additional observations from a re-analysis of the deposited data

How the results depend on the processing

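Over the 9 tested genes and 7 comparisons, 918 values kept their direction and their side of the threshold, 2 lost a call, 8 gained one and 37 changed sign, 30 of these on leaving out an array. Some settings, such as leaving out an array of a group outside the comparison or dropping the trend, cannot change the estimate. The direction was fixed in advance there, so the count of 918 overstates how far the values were tried. The 2 lost calls are those of Adgre1 without spleen CDC array 2, and Adgre1 kept its calls under every other setting run.

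Replicate numbers were not taken as pairs, since there are only 2 and the labels do not say what they mean. Xist, Eif2s3y and Mki67 nevertheless differed by that number in every cell type. A difference shared by arrays with the same number thus stays in the spread of the fit without a block. Deviations of arrays with the same number correlated across genes with r = 0.412 between CDC and NK, 0.529 between IKDC and CDC and 0.485 between IKDC and NK. With the replicate number as a block, spleen IKDC minus CDC gave 1901 called genes (1127 without it) and 2 of the 9 genes, Slc40a1 joining at 2.18 (limma adjusted p = 0.00935). Spleen NK minus CDC gave 2297 (1473 without it) and 2 of the 9, Vcam1 joining at -1.90 (limma adjusted p = 0.024). An additive model of organ and cell type called 1892 genes for IKDC minus CDC, 2400 for NK minus CDC, with 2 of the 9 (Lyz2 joining at -2.68, limma adjusted p = 0.0369), and 90 for lymph node minus spleen. Under it Vcam1 turned to -0.37 in IKDC minus CDC, and Adgre1 to -0.41 and Cd14 to 0.03 in IKDC minus NK.

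Between organs the counts over all genes were small and moved. For CDC, with 3 called, there were 5 with a shift to the 75th percentile, 13 with an offset of 1, 1 with an offset of 32, 0 with no filter, 8 with the mean of a gene's probe sets, 1 with each probe set on its own and 0 without the trend. For NK, with 0 called, there was 1 with an offset of 32 and 1 with no filter. For IKDC, with 0 called, there were 46 with an offset of 32 and 18 with the mean of probe sets, where C1qb turned to -0.05. For the mean of the 3 types, with 41 called, there were 66 without the quantile step, 95 with an offset of 32, 13 with no filter, 67 with each probe set on its own and 14 without the trend. C1qa turned there to 0.12 without the quantile step, 0.01 with the shift and 0.06 with an offset of 32. The cause of these moves was not tested.

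Leaving out 1 spleen array at a time gave 359 to 1396 genes and 0 to 2 of the 9 for IKDC minus CDC, 511 to 1912 genes and 0 to 3 of the 9 for NK minus CDC, 0 for IKDC minus NK, 0 to 19 for CDC, 0 to 14 for IKDC and 0 to 150 for the mean between organs, with 0 of the 9 in each. For genes whose sign changed on leaving out an array, the lowest and highest differences follow. In IKDC minus CDC they were -0.15 and 2.24 for Mrc1, and -0.45 and 1.92 for Vcam1. In NK minus CDC they were -1.57 and 0.95 for C1qa, -1.04 and 0.58 for C1qb, -0.24 and 2.14 for Mrc1, and -1.70 and 0.95 for Cd14. In IKDC minus NK they were -0.78 and 3.88 for Lyz1, -1.18 and 2.45 for Lyz2, -0.45 and 0.76 for Adgre1, -1.10 and 1.28 for Mrc1, and -1.97 and 0.67 for Cd14. Between organs they were -0.40 and 0.81 for Cd14 in CDC, -0.48 and 1.55 for Cd14 in IKDC, and in NK -0.68 and 3.98 for Lyz1, -0.60 and 3.02 for Lyz2, -2.48 and 0.03 for C1qa, -0.57 and 1.06 for C1qb, and -2.38 and 0.00 for Mrc1. In the mean of the types they were -0.42 and 0.42 for C1qa, -0.70 and 0.18 for Cd14, and -0.33 and 0.46 for Vcam1. The order of spleen arrays 2 above 1 held for 6 of 9 genes with the mean of probe sets (25.2% of all genes), 7 of 8 with an offset of 1 and 8 of 10 with no filter (21%). These settings, and the list counts without an array, were added after the data were seen.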
